A study of Homo sapiens with 8 samples.

Results

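CCN1, CCN2, ANKRD1, AMOTL2, CAV1, CAV2, AXL, HAS2, FILIP1L and PRSS23 are 10 genes that include common readouts of the transcriptional co-activators YAP and TAZ and the main proteins of caveolae. They were chosen by the measured difference between SRCAP and control siRNA, averaged over cells with and without drug, since several of them read higher after SRCAP siRNA. Every probe annotated to their symbols was followed. This gave 21 probes of the 48801 on the array, and 10 of its 18664 named genes. The difference between siRNAs is therefore given below as a description, and its counts past an adjusted p are not read as a test. The rule of choice did not use the response to the drug, which was tested, though earlier results of these data were known.

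The cells were RKO, an established human colon carcinoma line. All cells were transfected with siRNA at 100 nM, either a non-target control (NC) or one against SRCAP, the ATPase of a chromatin remodelling complex that places the variant histone H2A.Z. From 24 h after transfection they received 1 µM 5-Aza-2'-deoxycytidine (5-Aza-CdR), a nucleoside that inhibits DNA methylation, or PBS, and RNA was hybridised to Illumina HumanWG-6 arrays. Each siRNA was combined with PBS and with the drug, which gave 4 groups of 2 arrays, named here by siRNA and treatment (for example NC with PBS). The labels give 72 h of treatment, whereas the methods of the study describe an exposure of 24 h with RNA taken at 72 h. No source used here says whether replicates came from separate cultures, so the p-values reflect only how far these samples differ within a group, which may be technical. The model is 1 cell line, and RNA of the whole culture was measured, in which fewer cells of a type and less RNA per cell cannot be told apart.

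YAP and its paralogue TAZ (gene WWTR1) enter the nucleus when the Hippo kinases are inactive, as on stiff substrates or at low cell density, and bind DNA through TEAD factors. CCN1 and CCN2 (also called CYR61 and CTGF), ANKRD1 and AMOTL2 are among the best known TEAD-dependent genes, and AMOTL2 in turn restrains YAP. Caveolae are small pits of the plasma membrane built from caveolins, with CAV1 as the essential component and CAV2 as its partner, and they flatten when the membrane is stretched.

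The sequences just before the start sites of these genes are shown because TEAD factors bind a short motif, GGAATG, and its matches are in capitals (they appear as CATTCC where the motif lies on the other strand). Each stretch holds the 250 bases before a start site of RefSeq (GRCh38.p14), written 5′ to 3′ along the strand of the gene. CCN2 lies at chr6:131951373-131951622 (minus strand), ANKRD1 at chr10:90921088-90921337 (minus), AMOTL2 at chr3:134374448-134374697 (minus) and CAV1, shown as a stretch without a match, at chr7:116524759-116525008 (plus).
CCN2: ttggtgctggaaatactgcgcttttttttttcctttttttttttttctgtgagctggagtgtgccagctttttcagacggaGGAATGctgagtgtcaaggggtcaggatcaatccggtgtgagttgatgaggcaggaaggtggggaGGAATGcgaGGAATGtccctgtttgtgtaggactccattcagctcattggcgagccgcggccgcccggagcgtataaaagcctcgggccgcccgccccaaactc
ANKRD1: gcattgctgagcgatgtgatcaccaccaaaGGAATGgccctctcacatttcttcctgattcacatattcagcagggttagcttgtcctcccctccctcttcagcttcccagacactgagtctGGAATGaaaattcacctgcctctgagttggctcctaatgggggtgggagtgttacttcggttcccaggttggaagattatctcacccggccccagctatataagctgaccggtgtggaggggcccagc
AMOTL2: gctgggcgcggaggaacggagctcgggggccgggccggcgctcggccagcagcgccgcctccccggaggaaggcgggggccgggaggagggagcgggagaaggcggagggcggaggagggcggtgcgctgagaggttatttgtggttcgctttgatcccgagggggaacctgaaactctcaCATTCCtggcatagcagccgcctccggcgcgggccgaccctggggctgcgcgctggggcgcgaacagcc
CAV1: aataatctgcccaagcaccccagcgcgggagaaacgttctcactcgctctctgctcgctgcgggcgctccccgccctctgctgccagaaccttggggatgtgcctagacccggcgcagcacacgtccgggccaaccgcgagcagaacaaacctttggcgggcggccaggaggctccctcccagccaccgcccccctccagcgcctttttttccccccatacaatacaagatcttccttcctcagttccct
The CCN2 stretch held 3 matches, 169, 104 and 95 bases before the start, and that of ANKRD1 held 2, 220 and 128 bases before it. AMOTL2 had 1 match, on the other strand.

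Windows of 300 bases, which add 50 bases after the start, were given for 8 of the 10 genes and numbered 15, as several genes have more than 1 start. The motif, read on both strands, occurred in 1 window each of CCN2, ANKRD1, AMOTL2, AXL and FILIP1L, and in no given window of CAV1, CAV2 or PRSS23. It occurs in 14.0% of all 35116 such windows, and a match is only a run of letters, not a shown binding site. The AP-1 motif TGACTCA, also read on both strands and not overlapping the TEAD motif, occurred in none of the 15 windows and in 4.95% of all, and a missing match says only that these letters are not in this window. CAV1 and CAV2 neighbour each other on chromosome 7.

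**Figure D1:**
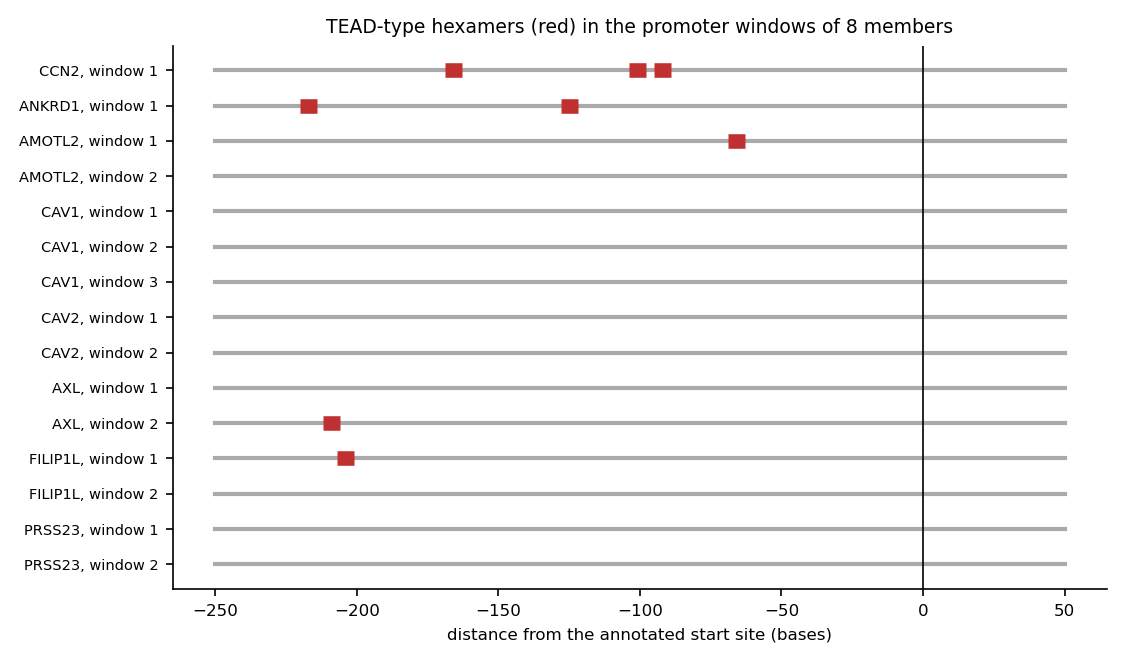
Position of GGAATG on either strand (red squares) in the 300-base RefSeq windows of 8 of the 10 genes, plotted as distance in bases from the annotated start site (vertical line). CCN2 has 3 matches and ANKRD1 has 2, AMOTL2, AXL and FILIP1L have 1 each in 1 of their windows, and the other windows have none.

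Values are normalized log2 signals, in which a difference of 1 is a change of 2-fold, and a probe counts as detected on an array where its detection p is under 0.01. The SRCAP probe ILMN_1750641 read 7.19 and 7.07 (NC with PBS), 6.83 and 7.16 (NC with 5-Aza-CdR), 6.58 and 6.58 (SRCAP with PBS) and 6.73 and 6.46 (SRCAP with 5-Aza-CdR). All SRCAP siRNA arrays lay below all NC arrays, but the average difference of -0.47 ± 0.16 (SE) did not pass the test over all probes (adjusted p = 0.172), and raw signals overlapped (213 to 247 in NC, 188 to 219 in SRCAP). Between 36.6% and 40.5% of probes were detected per array, and 20328 probes of 11670 genes, detected on at least 2 arrays, were kept for tests. The epithelial markers EPCAM, KRT8 and KRT18 and the intestinal factor CDX2 were measured, whereas CDH1, KRT19 and VIL1 were detected on no array and KRT20 on 1. The probes of several defining markers of colon epithelium thus gave little or no detected signal, which does not show that their RNA was absent. Of 9 fibroblast and 6 endothelial markers, COL1A2 was detected on 1 array and PECAM1 on all 8, and no other was detected, with summed probe signals of 142 to 192 and 146 to 195 over the 8 arrays.

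Of the 21 probes 17 were kept, for 9 of the 10 genes. CCN2, CAV1, HAS2, FILIP1L and PRSS23 read 1.89- to 3.20-fold higher with SRCAP siRNA, CCN1 and CAV2 less so, and AXL hardly differed. ANKRD1 was not detected, and AMOTL2 was detected in the SRCAP with 5-Aza-CdR group alone. CCN2 was also raised by 5-Aza-CdR itself, with either siRNA. In the values below, each pair is replicate 1 and replicate 2, which lay on slide 1 and slide 2 of the arrays.

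CCN2, a secreted matricellular protein that promotes matrix production, read 10.96 and 11.01 in NC with PBS and 12.15 and 12.20 in NC with 5-Aza-CdR (ILMN_1699829). With SRCAP siRNA it read 12.06 and 12.35 under PBS and 13.43 and 13.37 under 5-Aza-CdR. Both SRCAP arrays thus lay above both NC arrays within each treatment, drug alone and siRNA alone gave overlapping levels, and cells with both lay above all others. In raw signal this ran from 2178 and 2107 in NC with PBS to 11272 and 12504 in SRCAP with 5-Aza-CdR. The average difference between siRNAs was 1.22 ± 0.15 (SE), or 2.33-fold, and its second probe ILMN_2115125 gave 1.03 ± 0.15, or 2.04-fold.

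CCN1, a secreted relative of CCN2 that binds integrins, showed a smaller and less even difference. It read 12.50 and 12.57 in NC with PBS, 12.58 and 13.05 in NC with 5-Aza-CdR, 13.53 and 12.80 in SRCAP with PBS and 13.55 and 13.21 in SRCAP with 5-Aza-CdR. The siRNA groups overlapped, and the average difference of 0.60 ± 0.20 (SE) was 1.00 on slide 1 and 0.20 on slide 2.

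ANKRD1, a nuclear ankyrin repeat protein of stretched muscle and other cells, read 4.48 to 5.17 on the 8 arrays and was detected on none of them, so it gives no comparison. AMOTL2, a scaffold of cell junctions, read 5.47 and 5.17 in NC with PBS, 4.88 and 5.26 in NC with 5-Aza-CdR and 5.12 and 5.45 in SRCAP with PBS, where it was not detected. It was detected at 5.70 and 5.64 in SRCAP with 5-Aza-CdR and passed the filter through these 2 arrays alone, so a higher value there was a condition of its being kept. Against the lowest detectable level, AMOTL2 was at least 1.03-fold higher with SRCAP than with NC siRNA under the drug, a bound close to no difference.

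CAV1 separated the siRNAs on both of its probes. ILMN_2149226 read 11.23 and 11.13 in NC with PBS, 10.87 and 11.07 in NC with 5-Aza-CdR, 12.60 and 11.90 in SRCAP with PBS and 12.43 and 12.26 in SRCAP with 5-Aza-CdR. The lowest SRCAP array lay above the highest NC array, and the average difference was 1.23 ± 0.18 (SE), or 2.34-fold. ILMN_1687583 gave 1.19 ± 0.18, or 2.28-fold, likewise without overlap.

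The 3 probes of CAV2 gave smaller and unequal differences. ILMN_1658835 read 9.31 and 8.74 in NC with PBS, 9.18 and 9.15 in NC with 5-Aza-CdR, 9.46 and 9.32 in SRCAP with PBS and 9.85 and 9.75 in SRCAP with 5-Aza-CdR. Its groups were apart by a hair, 9.32 above 9.31, with an average difference of 0.50 ± 0.17 (SE). ILMN_1735220 gave 0.27 ± 0.15 with overlap, and ILMN_2360730, near background at 5.79 to 6.51, gave -0.03 ± 0.20.

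AXL, a receptor tyrosine kinase that binds GAS6, was bright on both probes and did not separate the siRNAs. ILMN_2364521 read 14.18 and 13.59 in NC with PBS, 13.72 and 12.99 in NC with 5-Aza-CdR, 14.30 and 13.79 in SRCAP with PBS and 13.55 and 13.58 in SRCAP with 5-Aza-CdR. Replicate 1 lay above replicate 2 in 3 of the 4 groups, and the average difference between siRNAs was 0.19 ± 0.22 (SE). ILMN_1701877 gave 0.09 ± 0.22.

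HAS2, a membrane enzyme that makes the matrix polysaccharide hyaluronan, had 2 kept probes, both without overlap between the siRNAs. ILMN_1792978 read 11.78 and 11.97 in NC with PBS, 11.07 and 11.59 in NC with 5-Aza-CdR, 13.24 and 12.81 in SRCAP with PBS and 12.57 and 12.80 in SRCAP with 5-Aza-CdR. The average difference was 1.25 ± 0.18 (SE), or 2.38-fold. ILMN_1700935 read 9.95 and 9.89, 8.94 and 9.17, 10.82 and 11.09, and 10.72 and 10.53 in the same order of groups, with 1.30 ± 0.15, or 2.47-fold. Further HAS2 probes, ILMN_1777562 and ILMN_2243036, were detected on no array and on 1 array.

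FILIP1L, a relative of the filamin-interacting protein FILIP1, had 3 kept probes, none with overlap. ILMN_1738578 read 8.41 and 8.39 in NC with PBS, 8.04 and 7.95 in NC with 5-Aza-CdR, 9.93 and 9.47 in SRCAP with PBS and 9.13 and 9.31 in SRCAP with 5-Aza-CdR. Its average difference was 1.26 ± 0.16 (SE), or 2.40-fold, beside 0.92 ± 0.15 for ILMN_1730906 and 1.17 ± 0.17 for ILMN_2391150. ILMN_1784407 was detected on no array.

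PRSS23, a serine protease, had the largest difference of the 17 kept probes and also the widest spread. It read 8.67 and 7.87 in NC with PBS, 8.39 and 7.35 in NC with 5-Aza-CdR, 9.96 and 9.55 in SRCAP with PBS and 9.87 and 9.61 in SRCAP with 5-Aza-CdR. The 2 NC replicates differed by more than the SRCAP replicates, but all SRCAP arrays lay above all NC arrays. The average difference was 1.68 ± 0.26 (SE), 1.38 on slide 1 and 1.97 on slide 2.

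**Figure D2:**
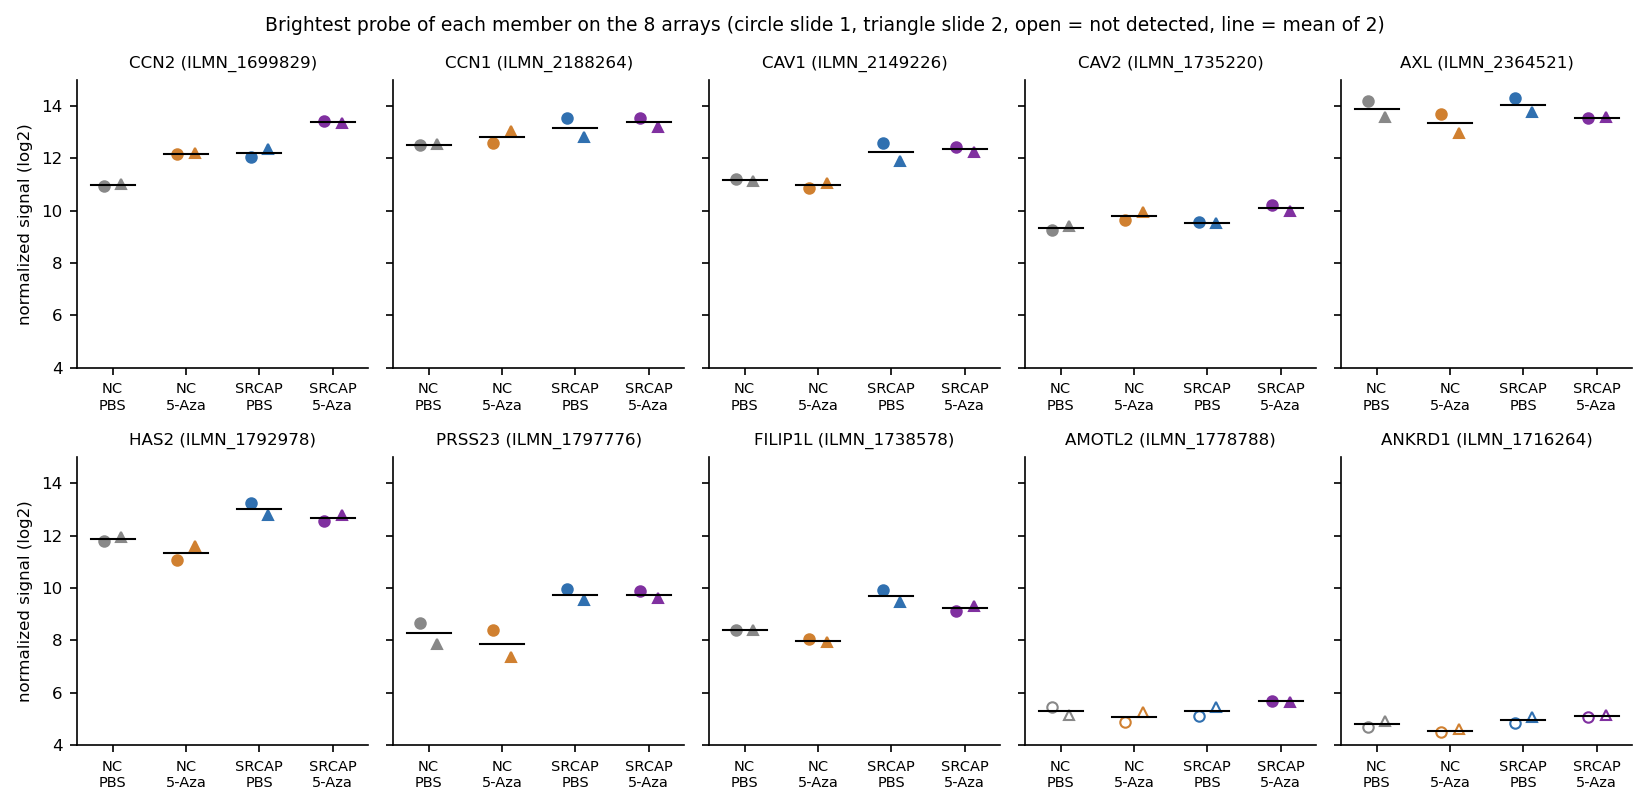
Normalized log2 signal (vertical axis, 1 scale for all panels) of the brightest probe of each of the 10 genes on the 8 arrays by group, with circles for slide 1, triangles for slide 2, open symbols where the probe was not detected and a line at the mean of 2 arrays. CAV1, HAS2, FILIP1L and PRSS23 show the SRCAP groups above the NC groups, CCN2 steps from 10.99 to 13.40 over the 4 groups, and ANKRD1 lies under 5.2 throughout without being detected.

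Over the 17 kept probes the median average difference was 1.03, beside 0.01 over all 20328, with 16 above 0 and 1 below. Of the 17, 10 probes of CCN2, CAV1, HAS2, FILIP1L and PRSS23 lay past an adjusted p of 0.05 and higher, where 0.192% of all probes did (4.25% with the slide as a block, where again 10 did). None lay past it and lower, where 0.797% of all probes did. In all, 9 probes of CAV1, CAV2, HAS2, FILIP1L and PRSS23 had all SRCAP arrays above all NC arrays, where 4.41% of all probes did. These counts describe the choice of the genes, which used this difference, and nothing is read from them. Of the probes past the limit the last by p were PRSS23 at 1.68 and FILIP1L (ILMN_1730906) at 0.92, and of those not past it the first were CAV2 (ILMN_1658835) at 0.50 and CCN1 at 0.60. The median was 0.99 under PBS, where no probe of these genes lay past the limit (0% of all did and were higher), and 1.04 under 5-Aza-CdR, where HAS2 (ILMN_1700935) did (0.0148% of all did and were higher). With the slide as a block, 4 of the 17 probes lay past the limit under PBS and 10 under 5-Aza-CdR, where 0.0689% and 1.47% of all probes were higher.

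The 4 measured epithelial markers read below 0 for the same difference, though none was called. EPCAM, an epithelial adhesion molecule, read -0.77 with SRCAP siRNA (adjusted p = 0.15, and 0.0111 with the slide as a block). With the block 1232 of all 20328 probes were lower. KRT18, a keratin, read -0.46 (adjusted p = 0.206). Over the list of 8 epithelial markers 4 were measured and the summed signal ranged from 6654 to 12169 on NC and from 5120 to 7575 on SRCAP arrays. Its part in the differences of the 10 genes was not tested. The share of detected probes was highest on replicate 2 of SRCAP with 5-Aza-CdR, and its part was not tested either.

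The response to 5-Aza-CdR was tested with limma over all kept probes. CCN2 rose in NC siRNA cells by 1.19 ± 0.21 (SE) on ILMN_1699829, from 10.99 ± 0.04 to 12.18 ± 0.03 (SD, n = 2), which is 2.29-fold with a 95% confidence interval of 0.72 to 1.66 on the log2 scale (adjusted p = 0.0107). It rose by 1.04 ± 0.22 on ILMN_2115125 (adjusted p = 0.0329). These were 2 of the 17 probes called higher, where 2.66% of all probes were, and none of the 17 was called lower, where 0.0541% were. With 1 array of NC left out the adjusted p of ILMN_1699829 went to 0.0635 (without NC with PBS replicate 1) and 0.077 (without NC with 5-Aza-CdR replicate 2). The call on ILMN_2115125 was lost whichever of the 8 arrays was left out (adjusted p from 0.0585 to 0.282) and with median scaling (0.86, adjusted p = 0.116).

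In SRCAP siRNA cells, where CCN2 started at 12.21 ± 0.21 (SD, n = 2), 5-Aza-CdR raised it to 13.40 ± 0.04. The rise was 1.20 ± 0.21 (SE, adjusted p = 0.0144) on ILMN_1699829 and 1.07 ± 0.22 (adjusted p = 0.0373) on ILMN_2115125. Again 2 of the 17 were called higher, beside 1.86% of all probes, and none lower, beside 0.0295%. The call on ILMN_1699829 was lost without SRCAP with PBS replicate 1 (adjusted p = 0.162) and without either SRCAP with 5-Aza-CdR array (0.178 and 0.149). That on ILMN_2115125 was lost without any 1 of the 4 SRCAP arrays (0.163 to 0.369).

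Averaged over both siRNAs, CCN2 rose by 1.19 ± 0.15 (SE, 2.29-fold, adjusted p = 0.000735), with 1.28 on slide 1 and 1.11 on slide 2, and by 1.05 ± 0.15 (adjusted p = 0.00244) on its second probe. The average call held whichever array was left out. Of the 17 probes these 2 were called higher, beside 3.39% of all probes, and none lower, beside 0.295%. With an unadjusted p under 0.05, 8 of the 17 passed for the average (11.5% of all probes did), 3 in NC siRNA cells (8.16%) and 3 in SRCAP siRNA cells (7.78%).

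No probe of the other genes was called for the drug with these settings. HAS2 came closest to a decrease, with -0.87 ± 0.22 (SE) in NC siRNA cells on ILMN_1700935 (adjusted p = 0.0918, and 0.0422 with the slide as a block, which adds this 1 lower probe where 0.271% of all were lower) and -0.33 in SRCAP siRNA cells, and it read -0.60 on average (adjusted p = 0.0772, and 0.0348 with the block, where 1.09% of all were lower). The same probe was called lower on average without background correction (-0.53, adjusted p = 0.0431) and in the table normalized by the authors (-0.50, adjusted p = 0.0437), and in NC siRNA cells where arrays were scaled by their median (-1.01, adjusted p = 0.0467). ILMN_1792978 read -0.44 on average (adjusted p = 0.379). The brightest CAV2 probe read 0.51 on average (adjusted p = 0.154), the 3 FILIP1L probes -0.24, -0.44 and -0.46, and the AXL probes -0.38 and -0.50. CCN1 read 0.25 and PRSS23 -0.21. The CAV1 probes read -0.00 and -0.06 on average. The 8 kept probes of CAV1, HAS2, FILIP1L and PRSS23, which separated the siRNAs without overlap, read from -0.60 to -0.00 for the drug. The other probe without overlap, CAV2 ILMN_1658835, went the other way at 0.27 (adjusted p = 0.642). The median drug difference over the 17 probes was -0.25 in NC and 0.08 in SRCAP siRNA cells, beside -0.06 and -0.03 over all probes.

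**Figure D3:**
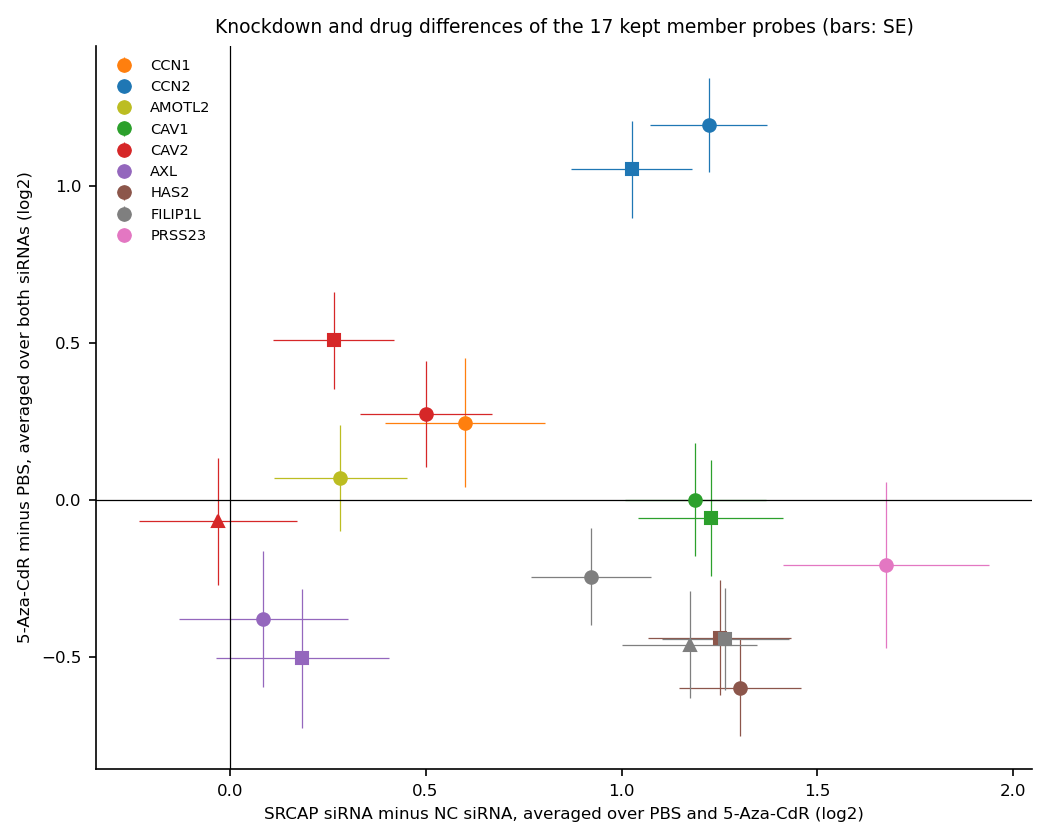
Average difference between SRCAP and NC siRNA (horizontal, log2, a description) against the average difference between 5-Aza-CdR and PBS (vertical, log2) for the 17 kept probes, with bars of 1 SE and 1 colour per gene (circle, square and triangle are different probes of a gene). Both CCN2 probes lie high on both axes (1.22 and 1.19 for ILMN_1699829), while CAV1, HAS2, FILIP1L and PRSS23 lie to the right at drug differences of 0 or below.

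Whether the knockdown altered the drug response was tested as the interaction, the 5-Aza-CdR difference in SRCAP minus that in NC siRNA cells. None of the 17 probes was called, and none of all 20328 (0%), and none of the 17 had an unadjusted p under 0.05, where 2.45% of all probes did. For CCN2 the interaction was 0.00 (95% confidence interval -0.66 to 0.67) and 0.03 (-0.66 to 0.72) on its probes, so the drug difference in the 2 siRNA groups could differ by that much in either direction. The values of the 17 ranged from -0.15 to 0.63, with 13 above 0 and a median of 0.14 beside 0.04 over all probes (0.26 over all probes where arrays were scaled by their median instead of quantiles). The highest, 0.63, was that of AMOTL2, which was undetected in 3 of the 4 groups. AMOTL2 was kept through SRCAP with 5-Aza-CdR alone, and a high value there favours an interaction above 0. Nothing is read from its value, which is part of the range, count and median given here.

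Other genes of the pathway were followed as lists and tested for the knockdown difference over all probes. The lists were drawn up with earlier results of these data known, so their calls are not independent of that choice. Of 17 other YAP and TAZ targets on the array 12 were measured, and 1 was called higher with SRCAP siRNA, beside 0.197% of the representative probes of all genes, and none lower, beside 1.05%. It was MYOF, a membrane repair protein, at 10.84 and 10.43, 10.94 and 10.65, 11.86 and 11.71, and 11.84 and 11.98 in the 4 groups, NC siRNA first and PBS before the drug. All SRCAP arrays lay above all NC arrays, and the rise was 1.13 ± 0.17 (SE, adjusted p = 0.02), 0.96 on slide 1 and 1.30 on slide 2. A second MYOF probe rose by 1.23 ± 0.20 (adjusted p = 0.0278). The call was lost without any 1 of the 4 SRCAP arrays (adjusted p from 0.0641 to 0.155).

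NT5E, which makes adenosine at the cell surface, read 1.02 ± 0.23 (SE, adjusted p = 0.0717, and 0.0039 with the slide as a block). With the block 4.25% of all probes were higher for the knockdown. F3, the tissue factor of blood clotting, read 0.52 and the phosphatase PTPN14 0.40. Of the 12 measured targets 11 lay above 0, with a median of 0.28 beside -0.01 over all genes, and GADD45A, a stress-induced growth arrest gene, lay below at -0.07. IGFBP3, FOXF2, NUAK2, TGFB2 and RBMS3 were not measured. None of the 12 was called for the average drug response, beside 4.01% of the representative probes called higher. With the slide as a block 2 were, NT5E (0.65, adjusted p = 0.0392) and GADD45A (0.64, adjusted p = 0.0234), where 882 of all 20328 probes were higher.

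Among 19 measured genes of the Hippo pathway and TEAD factors, WWTR1, the gene of TAZ, was called higher, 1 of 19 beside the same 0.197% of representative probes. It read 7.92 and 7.62 in NC with PBS, 7.81 and 7.62 in NC with 5-Aza-CdR, 8.98 and 8.54 in SRCAP with PBS and 8.54 and 8.66 in SRCAP with 5-Aza-CdR, without overlap. The rise was 0.94 ± 0.17 (SE, adjusted p = 0.0372), 0.89 on slide 1 and 0.98 on slide 2, and the call was lost in several alternatives, among them the table normalized by the authors (adjusted p = 0.0936) and each fit without 1 SRCAP array (0.0658 to 0.207), without NC with PBS replicate 2 (0.0866) or without NC with 5-Aza-CdR replicate 2 (0.095).

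YAP1 read 0.33 (adjusted p = 0.35), and the 4 TEAD genes read 0.07, 0.02, 0.23 and -0.02 from TEAD1 to TEAD4. SAV1, a scaffold of the Hippo kinases, read 0.58 (adjusted p = 0.12, and 0.0363 with the block, where 4.25% of all probes were higher). NF2, an upstream activator of the kinases, read 0.48 (adjusted p = 0.173). The median of the 19 was 0.23, with 16 above 0.

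The genes of the caveolar coat lay on both sides of 0. Of 7, 6 were measured and none was called. CAVIN1, the cavin needed for caveolae to form, read 0.23 (adjusted p = 0.502), CAVIN2 -0.20, the muscle cavin CAVIN4 0.20 and the membrane ATPase EHD2 -0.06. PACSIN2 read -0.25 (adjusted p = 0.403). CAVIN3 read -0.96 ± 0.31 (SE, adjusted p = 0.162, and 0.0112 with the slide as a block). With the block 1232 of all 20328 probes were lower. The list median was -0.13.

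**Figure D4:**
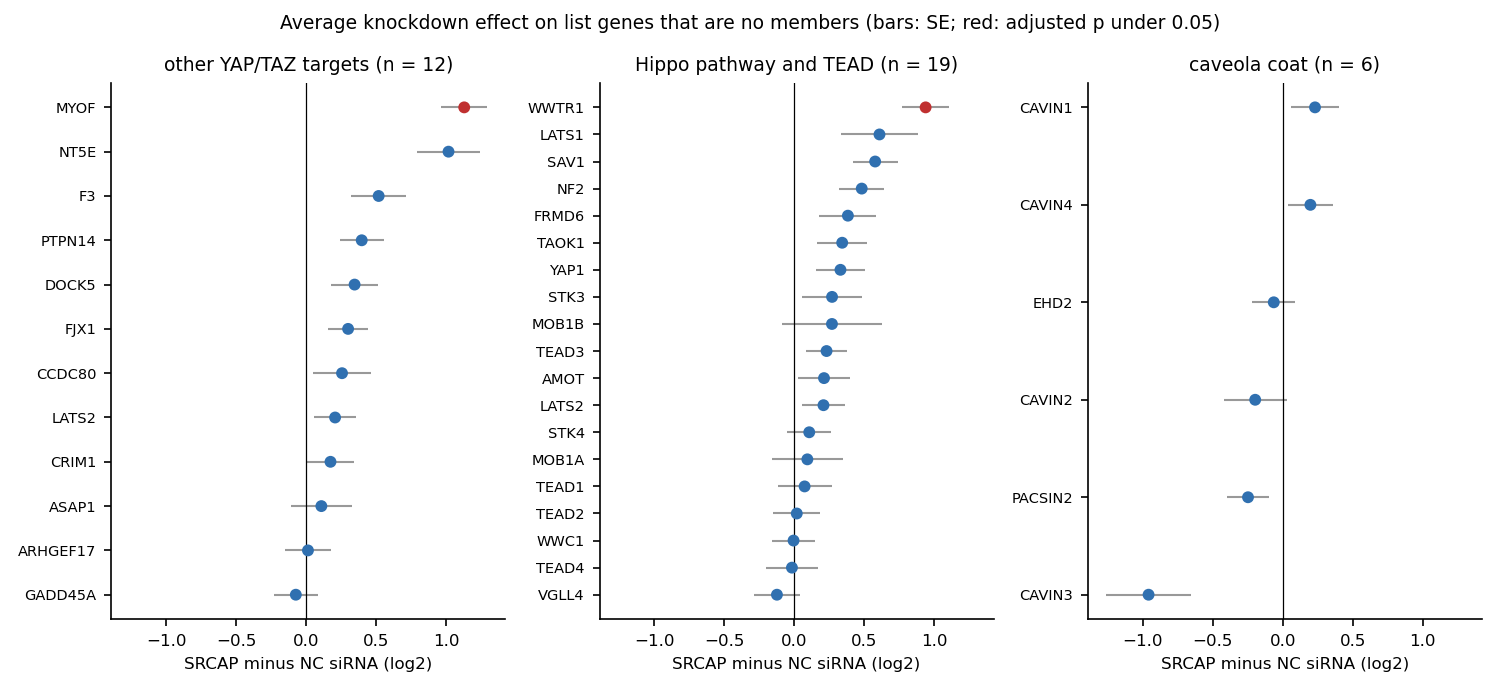
Average difference between SRCAP and NC siRNA (log2, bars of 1 SE) for the 12 other YAP and TAZ targets, 19 Hippo pathway and TEAD genes and 6 caveolar coat genes that were measured, with red for an adjusted p under 0.05. MYOF at 1.13 and WWTR1 at 0.94 are red, 11 of 12 and 16 of 19 genes lie above 0 in the first panels, and CAVIN3 lies lowest at -0.96.

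Of 16 paralogues and partners of the 10 genes on the array 11 were measured, and none was called for the knockdown. CCN3, a further CCN protein, read 0.54 (adjusted p = 0.176, and 0.038 with the block). The hyaluronan receptor CD44 read 0.60 (adjusted p = 0.175, and 0.0402 with the block). With the block 4.25% of all probes were higher. HAS3, another hyaluronan synthase, read -0.46 and the AXL ligand GAS6 0.29. FILIP1, the relative of FILIP1L, was called for the drug response but was undetected on all 4 PBS arrays and passed the filter through the drug groups alone. A higher value there was thus a condition of its being kept, and nothing is read from the call. Its rise is a bound, at least 3.66-fold in NC and at least 3.46-fold in SRCAP siRNA cells. FILIP1L itself read -0.24 to -0.46 on average. Of the paralogues and partners FILIP1 was the 1 called for the average drug response, beside 4.01% of the representative probes called higher. The slide block added MERTK, a receptor kinase of the AXL family (0.75, adjusted p = 0.00835), where 882 of all 20328 probes were higher. Of 14 measured targets of SRF, a factor that responds to actin and shares stimuli with YAP, none was called for the knockdown. With the block 1 was, TAGLN (adjusted p = 0.044), where 4.25% of all probes were higher. The contractile genes ACTA2 (2.48) and TAGLN (1.18, adjusted p = 0.0161) were called higher for the average drug response, 2 of 14 where 4.01% of the representative probes were.

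The genes most like CCN1, CCN2 and CAV1 over the 8 arrays were named by the root mean square difference of their profiles, each centred on its own mean, among 11669 other genes. This is a description, and the measure reads knockdown and drug together. For CCN2 they were MAP3K7CL (0.248), SPP1 (0.347) and TAGLN (0.388), all of which were called higher for the average drug response, where 4.01% of the representative probes were. CCN2 itself rose with the drug, so likeness to it favours such calls, and nothing is read from them. MAP3K7CL rose by 1.48 and TAGLN by 1.18, while SPP1, which was undetected in NC with PBS, rose at least 1.91-fold in NC siRNA cells and by 1.91 on the log2 scale in SRCAP siRNA cells. For CAV1 they were DEPTOR (0.226), KLF4 (0.233) and WWTR1 (0.233). Of the other chosen genes, FILIP1L stood at rank 5 at 0.251 and HAS2 at rank 6 at 0.252. CCN1 stood at rank 72, PRSS23 at 312, AMOTL2 at 1974, CAV2 at 2967, AXL at 4170 and CCN2 at 5619. These genes were chosen by the difference between siRNAs, which CAV1 shows. Closeness to CAV1 is thus favoured by the choice, and nothing is read from the ranks. For CCN1 they were TNFAIP1 (0.148), PLAGL1 (0.166) and PIM1 (0.170). Of these 9 genes 4 stayed among the nearest in the table normalized by the authors.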

How the data were processed

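The deposited data were an unnormalized table of Illumina probe signal intensity with a detection p-value for each probe, exported by the authors with BeadStudio 3.0.1, and a table of log2 values that the authors had normalized with lumi (version not given in the sources used here). The number of arrays limits the precision. With limma 3.58.1 under R 4.3.3, intensities were corrected by normexp (offset 16), normalized by quantiles and log2-transformed. The filter required a detection p below 0.01 on 2 or more of the 8 arrays and left 20328 of 48801 probes. Gene symbols came from the platform annotation, with 27539 probes updated by gene ID through RefSeq.

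All 8 arrays entered 1 linear model of the 4 groups, with two-sided moderated tests and Benjamini-Hochberg adjustment over all kept probes of each contrast, called at an adjusted p under 0.05. Its 4 residual and 5.83 prior degrees of freedom are shared by the groups. The model was tested on simulated data. SAM, which the methods of the study name, was not run. Array labels place replicate 1 of every group on 1 slide and replicate 2 on another, so the slide was tried as a block. Deviations of same-numbered arrays correlated at 0.00347 to 0.711. Other alternatives changed the background correction, the offset, the scaling, the filter, the arrays used and the table. Where a probe was undetected in a group, a fold is a bound set against the lowest detected signal.

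The 10 genes and all lists were chosen with earlier results of these data known. A gene of a list was represented by its brightest kept probe. Named list genes were the called ones and up to 3 more of smallest p, beside the likeness rule. YAP1, TEAD1 to TEAD4, the caveolar coat, GADD45A, HAS3, GAS6, MERTK and FILIP1 were named after their values were seen.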

Additional observations from a re-analysis of the deposited data

Results flagged for a closer look

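The 17 kept probes were scanned for drug differences of opposite sign with NC and SRCAP siRNA, the same on both slides. How many of all probes show this was not counted, so nothing is read from a probe meeting it. CAV1 probe ILMN_1687583 alone met it. It read lower after 5-Aza-CdR on both slides with NC siRNA (-0.42 and -0.16) and higher on both with SRCAP siRNA (0.28 and 0.30). The difference between these responses was 0.58 (95% confidence interval -0.22 to 1.38) and was not called by limma (adjusted p = 0.999). The second CAV1 probe, ILMN_2149226, read -0.21 in NC and 0.09 in SRCAP siRNA cells. With SRCAP siRNA its slides went opposite ways, -0.17 on slide 1 and 0.36 on slide 2.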

How the results depend on the processing

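With 2 arrays per group, counts of called probes moved with the settings. With the slide as a replicate block, 3 probes of the 10 genes were called for the drug in NC siRNA cells and 3 on average instead of 2 and 2, 2 stayed in SRCAP siRNA cells, and the interaction stayed at 0. The added probe was HAS2 ILMN_1700935, lower, which was also called on average without background correction and in the authors' table (3 each) and in NC siRNA cells with median scaling, where a CCN2 probe was lost. The same block left 10 past the limit for the average knockdown, 4 under PBS instead of 0 and 10 under 5-Aza-CdR instead of 1. It gave 2 instead of 1 among the other YAP targets and 5 instead of 1 among the Hippo, caveolar coat and paralogue lists. Of these 5, CAVIN3 was lower and the others higher. With the block 864 of all 20328 probes were higher for the average knockdown and 1232 lower, so nothing is read from these counts. For the average knockdown the count of 10 went to 5 without background correction, 6 with median scaling, 4 in the authors' table and 5 without a filter. Under 5-Aza-CdR it went from 1 to 0 in each of these 4 settings and with detection on all 8 arrays, to 2 with an offset of 50, and to 9 with the compared arrays alone. The Hippo, caveolar coat and paralogue lists went from 1 to 0 in the same 4 settings. For the drug, detection on all 8 arrays left 1 with either siRNA, and the NC arrays alone left 0 with NC siRNA. Leaving out 1 array gave 0 to 1 in NC and 0 to 2 in SRCAP siRNA cells for the drug, 2 on average, 0 for the interaction, 0 to 10 for the average knockdown, 0 under PBS, 0 to 7 under 5-Aza-CdR, 0 to 2 among other YAP targets and 0 to 2 among the other lists. The average knockdown count was 0 without SRCAP with PBS replicate 1 or either SRCAP with 5-Aza-CdR array and 3 without SRCAP with PBS replicate 2. Of 9 nearest genes 4 stayed in the authors' table. Median scaling moved the median over all probes from 0.03 to 0.23 for the knockdown under 5-Aza-CdR and from -0.03 to 0.10 for the drug in SRCAP siRNA cells. Over all probes the average knockdown called 39 higher and 162 lower, 864 and 1232 with the block, and 6 and 19 in the authors' table. No sign of a called value changed in the alternatives run. The cause of these shifts was not tested. Probes near background, as those of AMOTL2 and ANKRD1, limit what could be compared.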
